A study of Mus musculus with 6 samples.

Results

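The DEAD-box and DEAH-box RNA helicases were examined in mouse embryonic heart as 50 genes, those whose symbol starts with Ddx or Dhx followed by a digit, out of 18193 genes that the arrays name through probe sets annotated to 1 gene. The sex-linked pair Ddx3x and Ddx3y was left out by the same rule. There were 34 Ddx and 16 Dhx genes, measured by 110 probe sets, and a gene's value is that of its brightest probe set, by the mean over the 6 arrays. Expression had been measured on Affymetrix 3' arrays, 1 array per RNA sample, in hearts of C57BL/6 embryos at stage E12.5. The labels give 3 arrays as wildtype and 3 as Rhau KO, Rhau being an older name of Dhx36, which is itself a member of the family. The sources used here do not say how the gene was deleted or in which cells of the heart. Values are log2 signals, and a difference is the mean of the arrays labelled Rhau KO minus the mean of those labelled wildtype. Of the 50 genes, 46 had a signal above the lowest 40% of all probe sets (a log2 signal of 5.90) and were tested. Since whole hearts were used, fewer cells of a type and less RNA per cell cannot be told apart.

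DEAD-box and DEAH-box proteins are motor enzymes that bind RNA and use ATP to open short duplexes or to strip proteins from it, and they are named after the amino acids of a conserved motif in the ATP-binding core. DEAD-box enzymes pry apart local structures during ribosome assembly, mRNA export, translation and decay. DEAH-box enzymes move along the strand in a 3' to 5' direction and drive the rearrangements of the spliceosome, and Dhx36 among them unfolds G-quadruplexes, stacked structures of guanine-rich RNA and DNA. Ddx11, although it carries the name, is a DNA helicase that acts in the cohesion of sister chromatids.

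The sequences just before the transcription start are shown for 4 genes that passed the test: Dhx36, the targeted gene, Dhx15 and Dhx9, which were lower on every probe set above the filter, and Dhx33, the largest increase to pass after Dhx36. They are taken from RefSeq (GRCm38.p6) and are the 120 bases before the start, read 5' to 3' on the strand of the gene. Capitals mark 4 motifs on either strand: GGGCGG, the GC box bound by Sp1 proteins, CCAAT, bound by NF-Y, CCGGAAG, a core bound by ETS factors, and CACGTG, the E-box.
Dhx36, chr3:62506989-62507108 (minus strand): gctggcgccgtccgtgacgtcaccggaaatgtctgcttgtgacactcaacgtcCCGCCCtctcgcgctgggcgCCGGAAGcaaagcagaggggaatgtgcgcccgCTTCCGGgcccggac
Dhx15, chr5:52190547-52190666 (minus strand): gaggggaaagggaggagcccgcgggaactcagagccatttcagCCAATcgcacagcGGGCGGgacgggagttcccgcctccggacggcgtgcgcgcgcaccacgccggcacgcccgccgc
Dhx9, chr1:153487661-153487780 (minus strand): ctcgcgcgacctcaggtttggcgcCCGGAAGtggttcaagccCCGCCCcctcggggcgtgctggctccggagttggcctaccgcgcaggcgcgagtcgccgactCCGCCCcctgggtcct
Dhx33, chr11:71004433-71004552 (minus strand): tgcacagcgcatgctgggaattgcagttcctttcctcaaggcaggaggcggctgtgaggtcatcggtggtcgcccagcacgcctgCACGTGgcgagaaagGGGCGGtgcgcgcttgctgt

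In these 120 bases Dhx36 had a CCGGAAG on each strand, with first letters 47 and 15 bases before the start, and a GC box on the opposite strand. Dhx9 had CCGGAAG 96 bases before the start and GC boxes on the opposite strand at 78 and 16 bases. Dhx15 had a CCAAT 77 and a GC box 64 bases before the start, and Dhx33 an E-box 35 and a GC box 20 bases before it. Over windows from 250 bases before to 50 after a start, on both strands, 44 of the 50 genes were in the RefSeq promoter table, with 55 windows. CCGGAAG was in 38.2% of those 55 windows and in 8.86% of all 32851 windows in the table, and the GC box in 58.2% and 35.7%. The other shares were 47.3% and 37.4% for CCAAT, 12.7% and 7.15% for CACGTG, 14.5% and 4.05% for ATGGCGG, 10.9% and 13.6% for TATAAA, 5.45% and 0.971% for the NRF1 palindrome (GCGC, AT and GCGC joined), and 0% and 0.466% for the palindrome of TCTCG and CGAGA joined. A G-quadruplex pattern, written as 4 runs of at least 3 G with gaps of 1 to 7 bases, was in 9.09% of the helicase windows and 18.5% of all. It was in windows of Ddx31, Ddx5, Ddx58 and Dhx32, and not in that of Dhx36. All 9 patterns were searched as letters on both strands. The G-quadruplex pattern can overlap a GC box, none of the others contains another, and a match is a description of the sequence.

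The arrays had the same mean linear signal of 500 once the lowest and highest 2% of probe sets were left out. Their median log2 signals ran from 6.68 to 6.80, and centring each array on its median moved the median difference of all genes by -0.069. All 7 cardiomyocyte markers were measured, none at 0. Their summed linear signal ran from 181416 to 189344 under the wildtype label and from 162291 to 184531 under the Rhau KO label, and 2 of 7 were lower. Of 6 erythroid markers 4 were lower, with sums from 91974 to 98034 against 70675 to 88461. Of 6 endothelial markers 3 were higher (8051 to 8934 against 9263 to 9942), as were 2 of 4 neural markers (864 to 952 against 1016 to 1066). Of 6 macrophage markers 2 were higher, Lyz2 and Mrc1, and the summed signal of 2331 to 2451 against 3283 to 3951 rested on Lyz2, without which it was 2166 to 2293 against 2164 to 2602. Of 4 liver markers, 1 was bright enough to be tested and did not pass (279 to 369 against 229 to 386). None of these markers was at 0 on all arrays. The Y chromosome genes Eif2s3y, Kdm5d and Uty had a mean signal, relative to the brightest array set to 100%, of 1.23, 2.04 and 39.3% on the wildtype arrays and 59.6, 82.8 and 100% on the Rhau KO arrays. Xist lay between 13.47 and 13.85 on the wildtype arrays and at 13.14, 12.37 and 5.10 on the Rhau KO arrays. Wildtype replicate 3 and Rhau KO replicates 1 and 2 thus carried high signals of both Xist and the Y chromosome genes. Whether an array holds RNA of more than 1 embryo is not stated in the labels, so SDs, SEs and n = 3 refer to arrays. The part of these cell type and sex-linked signals in the results was not tested. Fits that include the Y-linked signal are given beside the genes, but they are no such test. That signal was higher on every Rhau KO array than on every wildtype array, so the fits can hardly tell it from the label. With it, 0.370% of all genes tested were called higher and 1.06% lower, against 8.20% and 10.8% without it. A call lost there cannot be tied to the sex-linked signal.

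Helicase genes changed in both directions. Dhx36, Dhx33, Ddx49, Ddx21 and Ddx20 were higher in the arrays labelled Rhau KO, and Dhx15, Dhx9 and Ddx6 were lower. The 5 higher genes, with the targeted gene Dhx36 counted among them, were 10.9% of the 46 tested, where 8.20% of all 12416 genes tested were higher. The 3 lower genes were 6.52%, where 10.8% of all genes were lower. Calls in either direction thus came to 17.4% of the helicases and 19.0% of all genes, a share near the background. The arrays of the labels did not overlap for 17 of the 46 genes, 37.0%, against 37.1% of all genes. Of these, 13 were higher (28.3%, against 18.4% of all genes) and 4 lower (8.70%, against 18.7%). The median difference was 0.10 over the helicases and 0.011 over all genes. The decreases of Dhx15, Dhx9 and Ddx6 were between 0.62 and 0.69 on the log2 scale, whereas the increases other than Dhx36 were between 0.27 and 0.37. In a fit that includes the Y-linked signal, Dhx36, Dhx15 and Ddx6 kept a call, 1 higher and 2 lower, where 0.370% and 1.06% of all genes were called. After quantile normalization 8 helicases were higher and 4 lower, where 7.72% and 11.1% of all genes were. With each array centred on its median, which moved the median of all genes by -0.069, 2 were higher and 4 lower, where 4.28% and 14.9% of all genes were. With every probe set tested on its own, 12 of 88 helicase probe sets were higher (13.6%, against 6.80% of all) and 5 were lower (5.68%, against 7.84%). These are probe sets and not genes: all 3 of Dhx36 are among the higher ones, and both of Dhx15 among the lower ones. With 1 array left out, higher calls became fewer among the helicases and among all genes. Lower calls among the helicases stayed at 3, or became 4 without wildtype replicate 3. Lower calls over all genes were not counted in these fits, so this lower count has no background to be read against. The higher count was 2 (4.35%) without wildtype replicate 1, where 4.75% of all genes were higher. It was 3 (6.52%) without wildtype replicate 2, wildtype replicate 3 or Rhau KO replicate 2, where 4.91%, 5.20% and 6.00% of all genes were, and 4 (8.70%) without Rhau KO replicate 1 or 3, where 5.35% and 6.46% were.

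**Figure D1:**
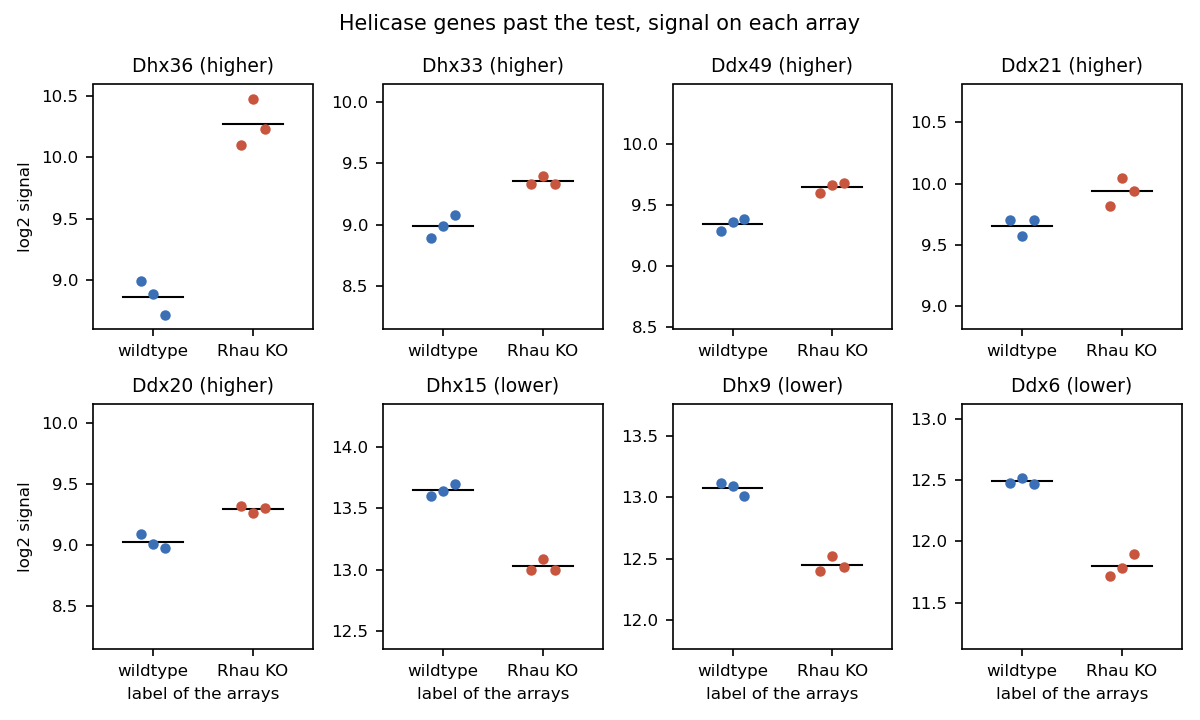
Log2 signal on each array for the 8 helicase genes that passed the test (points, 3 arrays per label; lines, means), with every panel spanning the same log2 range. No array of one label reaches into the range of the other for any of them, and Dhx36 is set apart most, at 8.71 to 8.99 against 10.10 to 10.48.

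Dhx36, the helicase that the study deleted, had log2 signals of 8.99, 8.88 and 8.71 in wildtype replicates 1 to 3 and of 10.10, 10.48 and 10.23 in Rhau KO replicates 1 to 3. Every array labelled Rhau KO thus lay above every array labelled wildtype, which goes against the label, and groups are therefore called by the label they carry. Every direction in the text is that of the labels: if the labels were exchanged, each sign would turn, so that the genes given as higher would be lower and Dhx15, Dhx9 and Ddx6 would be higher. The difference was 1.41 (SE 0.11), a 2.66-fold higher level, with limma adjusted p = 1.46e-05, and 26 of the 12416 genes were further up. The other Dhx36 probe sets gave 8.66, 8.52 and 8.86 against 9.76, 9.60 and 9.97, a difference of 1.10, and 8.60, 8.40 and 8.56 against 9.47, 9.40 and 9.40, a difference of 0.90. All 3 probe sets separated the labels. The labels do not say which part of the gene was removed, and a probe set outside that part would check nothing. Over all 19 alternatives the difference stayed between 1.14 and 1.50 and the call was kept.

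Among the 10 splicing helicases, all tested, 1 fell, 0 rose and 9 did not pass (median 0.074). Beside the counts of this and the following role groups, 8.20% of all genes tested were higher and 10.8% lower. The splicing helicase that fell was Dhx15, which releases the excised intron lariat from the spent spliceosome and also acts in ribosome assembly. Its log2 signals were 13.60, 13.64 and 13.70 in the wildtype arrays and 13.00, 13.09 and 13.00 in the Rhau KO arrays. The groups lay apart by more than their own spread, whose SDs were 0.048 and 0.055 (n = 3 each). The difference was -0.62 (SE 0.048), a 1.54-fold lower level with limma adjusted p = 1.59e-05, and 3.03% of all genes were further down. A second Dhx15 probe set gave 13.40, 13.37 and 13.34 against 12.69, 12.71 and 12.79, a difference of -0.64 that passed on its own (limma adjusted p = 2.21e-05 over all probe sets). No alternative ended the call, and the difference ranged from -0.70 to -0.57. The remaining spliceosomal enzymes lay between -0.26 (Dhx38, which acts at the second catalytic step) and 0.33 (Ddx41). The Dhx38 set carries the manufacturer's mark for probes that may match other transcripts. Without marked sets Dhx38 differed by 0.21 (limma adjusted p = 0.671). For Ddx39b, which loads onto mRNA during splicing and hands it on for export, the difference was 0.14 with limma adjusted p = 0.0560. Ddx23 and Ddx46, enzymes of early spliceosome assembly, differed by 0.29 and 0.064 without passing, and Dhx8, which releases the spliced mRNA, by 0.039.

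All 16 ribosome biogenesis helicases were tested, of which 3 rose, 0 fell and 13 did not pass (median 0.13). Of all genes tested, 8.20% were higher and 10.8% lower (median 0.011). Dhx33, a nucleolar helicase tied to rRNA transcription, was at 8.89, 8.99 and 9.08 in the wildtype arrays and at 9.33, 9.40 and 9.33 in the Rhau KO arrays. Its difference was 0.37 (SE 0.084), 1.29-fold, with limma adjusted p = 0.0120. Ddx49, a factor of rRNA processing, was at 9.29, 9.36 and 9.39 against 9.60, 9.66 and 9.68. Ddx49 thus rose 1.23-fold (0.30, SE 0.072, limma adjusted p = 0.0159). Ddx21, a nucleolar helicase that coordinates rRNA transcription and modification, was at 9.70, 9.57 and 9.70 against 9.82, 10.05 and 9.94, a rise of 1.21-fold (0.28, SE 0.079, limma adjusted p = 0.0325). In all 3 genes the lowest Rhau KO array lay above the highest wildtype array. These increases were less steady than the decrease of Dhx15. With each array centred on its median, Ddx49 and Ddx21 lost their calls at 0.23 and 0.21. In the fit with the Y-linked signal all 3 did, at 0.24 for Dhx33, 0.17 for Ddx49 and 0.11 for Ddx21. Averaging all probe sets of a gene also ended the 3 calls, at 0.36, 0.47 and 0.092, and Ddx21 lost its call in limma without a trend (limma adjusted p = 0.0764). The average of 0.47 for Ddx49 takes in a set below the filter, which differed by 1.29 between the labels. The Ddx49 call was also lost without wildtype replicate 1 (0.27), and that of Ddx21 without wildtype replicates 1, 2 or 3 (0.30, 0.24 and 0.30) or Rhau KO replicates 2 or 3 (0.22 and 0.28). The other Ddx21 probe set above the filter differed by -0.10 and that of Ddx49 by -0.17, both without a call, whereas that of Dhx33 differed by 0.36, also without a call.

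The 13 ribosome biogenesis genes that did not pass had differences from 0.0012 for Ddx50 to 0.35 for Ddx55. Ddx54 stood next to the threshold, at 10.91, 10.92 and 10.93 against 11.06, 11.11 and 11.07, with a difference of 0.16 (SE 0.050) and limma adjusted p = 0.0501. That probe set carries the manufacturer's mark for probes that may match other transcripts. Without marked sets, Ddx54 differed by 0.15 on a set where the labels overlapped (limma adjusted p = 0.232). The sign was the same in all 16 genes as deposited, where 51.9% of all genes were above 0. After quantile normalization and with the Y-linked signal 15 of 16 were above 0, against 49.4% and 49.5% of all genes. With each array centred on its median 14 of 16 were, and the group median was 0.059 in place of 0.13. As deposited, 8 of 10 splicing genes and 4 of 5 of mRNA export, translation and decay were also above 0. In the transcription group 2 of 4 were, and 3 of 5 without an assigned role. Over all 46 helicases 39 differences were above 0, against 51.9% of all genes, and this fell to 29 of 46, against 39.6% of all genes, with median centring.

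**Figure D2:**
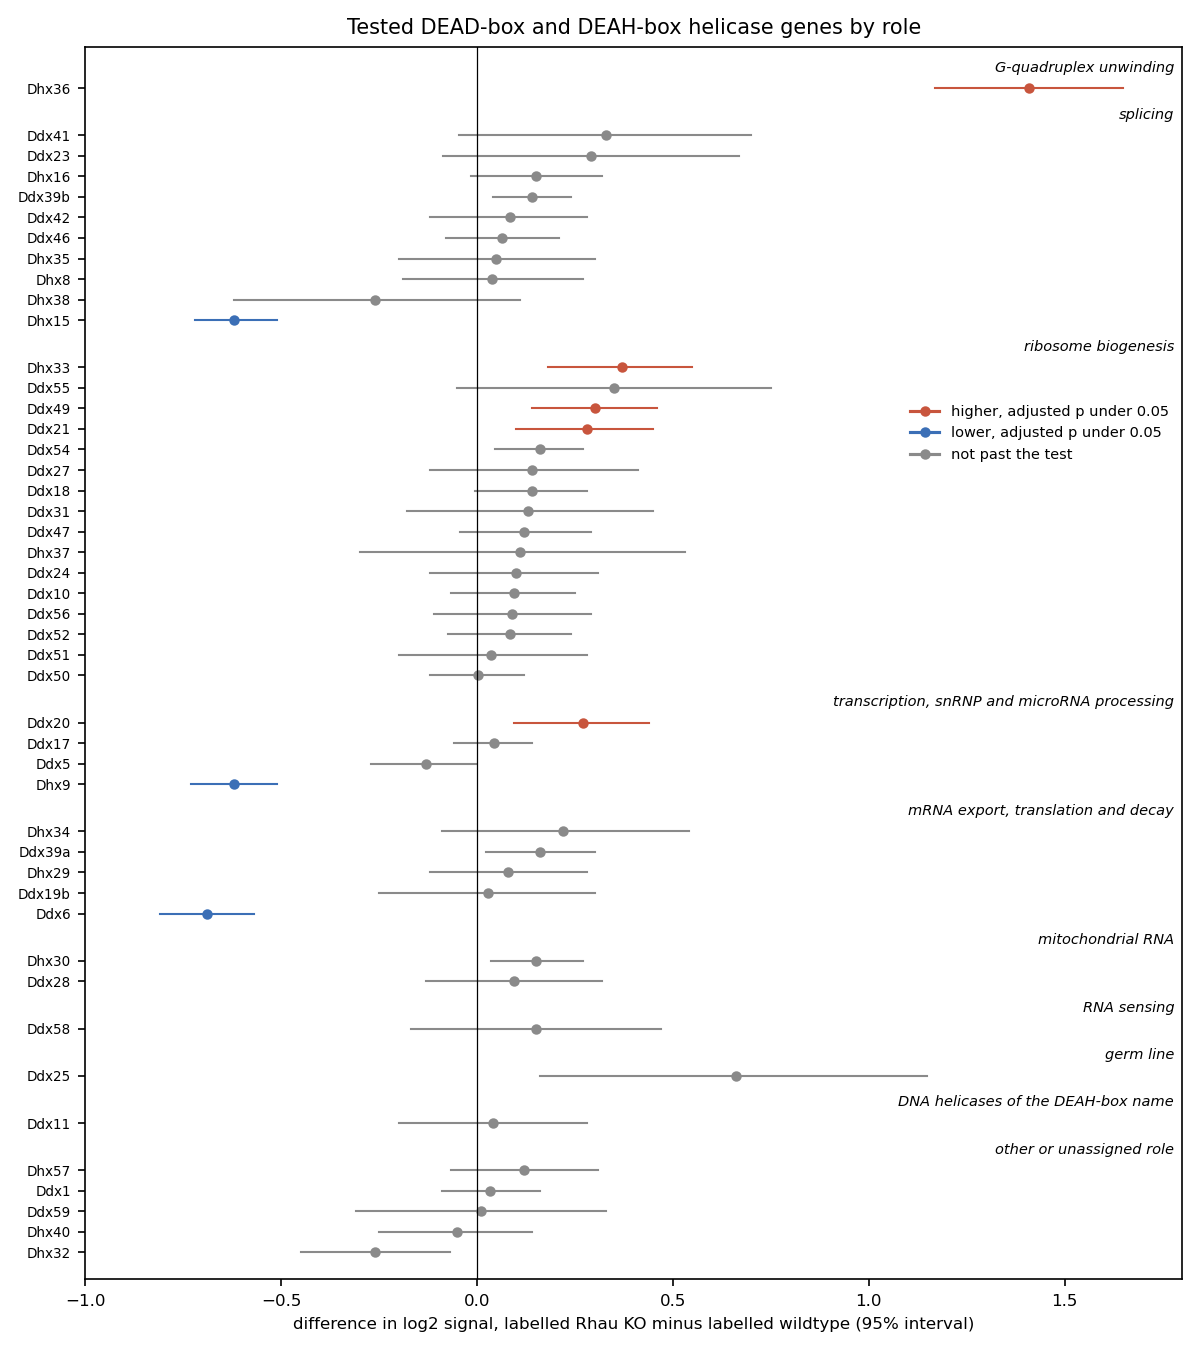
Difference in log2 signal (labelled Rhau KO minus labelled wildtype) with its 95% interval for the 46 tested helicase genes, grouped by role; red is higher, blue is lower and grey did not pass at an adjusted p of 0.05. The 16 ribosome biogenesis genes lie at or to the right of 0, and Dhx15, Dhx9 and Ddx6 lie apart on the left, each in a different group.

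The 4 helicases of transcription, snRNP assembly and microRNA processing split, with 1 higher, 1 lower and 2 not past the test. Dhx9, which resolves RNA duplexes and RNA-DNA hybrids and bridges transcription factors to RNA polymerase II, was at 13.12, 13.09 and 13.01 in the wildtype arrays and at 12.40, 12.52 and 12.43 in the Rhau KO arrays. The difference of -0.62 (SE 0.050) was a 1.54-fold lower level, with limma adjusted p = 2.19e-05. A dimmer Dhx9 probe set gave 10.97, 11.03 and 11.01 against 10.21, 10.23 and 10.50, a difference of -0.69 that passed on its own (limma adjusted p = 3.75e-04 over all probe sets). Both sets separated the labels, while the remaining one lay below the filter, between 1.14 and 5.54. The call was lost at -0.56 in the fit with the Y-linked signal (limma adjusted p = 0.0501), and at -0.50 when all 3 probe sets were averaged, the dim one included.

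Ddx20, known as Gemin3, is a part of the SMN complex that assembles spliceosomal snRNPs. It was at 9.09, 9.01 and 8.98 against 9.32, 9.26 and 9.30, a rise of 1.20-fold (0.27, SE 0.078, limma adjusted p = 0.0379), measured by 1 probe set. The call was lost in 10 of 19 alternatives, as often as that of Ddx21. Leaving out any single array ended it, at differences from 0.24 to 0.30 and limma adjusted p from 0.0600 to 0.102. It was also lost with median centring (0.20, limma adjusted p = 0.146), with quantile normalization (0.24) and in the fit with the Y-linked signal (0.35). Ddx5 and Ddx17, paralogs that act as transcription coregulators and in the Drosha complex, did not pass, at -0.13 and 0.042 (limma adjusted p = 0.146 and 0.570).

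Of the 5 helicases of mRNA export, translation and decay, 1 fell and 4 did not pass. Ddx6, which represses translation and promotes decapping in P-bodies, had log2 signals of 12.48, 12.52 and 12.47 in the wildtype arrays and of 11.72, 11.78 and 11.90 in the Rhau KO arrays. The difference was -0.69 (SE 0.055), a 1.61-fold lower level with limma adjusted p = 2.10e-05, the lowest difference of the family by brightest probe sets, in the direction of the labels. The other probe sets of Ddx6 did not show it. They were at 10.70, 10.70 and 10.86 against 10.71, 10.81 and 10.90, a difference of 0.057, and at 10.26, 10.24 and 10.22 against 10.18, 10.47 and 10.37, a difference of 0.10 (limma adjusted p = 0.645 and 0.428 over all probe sets). On both of these the labels overlapped, and the remaining set lay below the filter. The call was lost at -0.048 when the probe sets of Ddx6 were averaged, so the decrease is that of 1 probe set and not of the others above the filter. Where the probe sets lie on the transcript was not examined. Ddx39a and Ddx19b, which act in mRNA export, differed by 0.16 and 0.029, Dhx29, a factor for scanning through structured leaders, by 0.080 and Dhx34, of nonsense-mediated decay, by 0.22, all without passing.

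**Figure D3:**
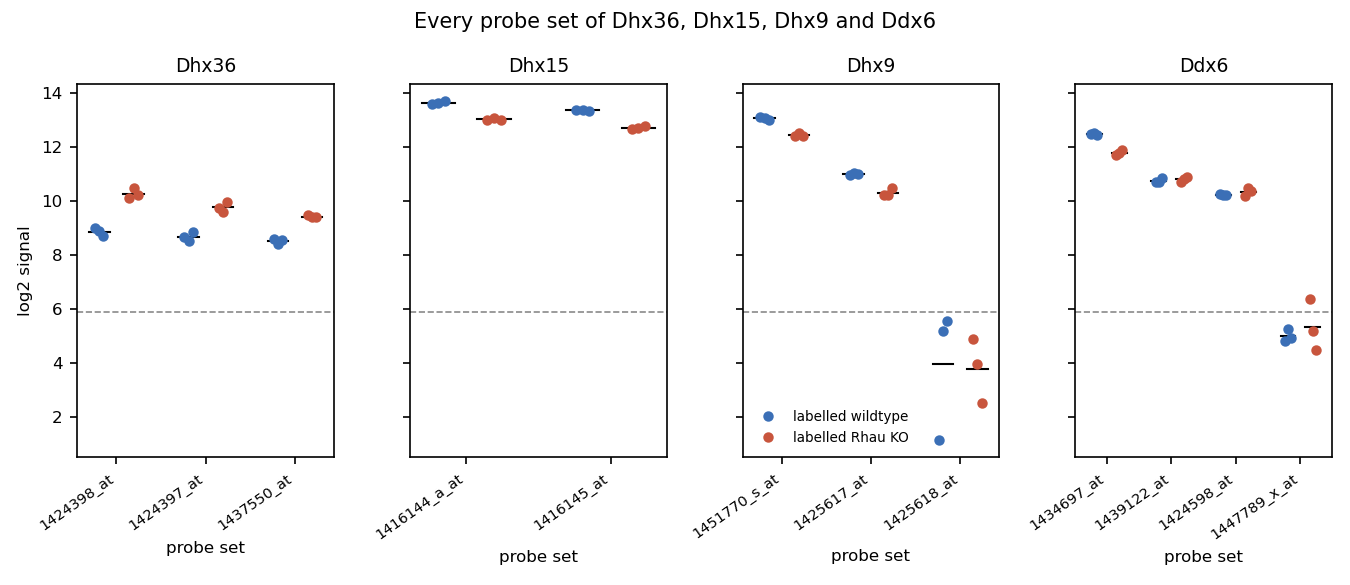
Log2 signal on each array for every probe set of Dhx36, Dhx15, Dhx9 and Ddx6 (points, 3 arrays per label; lines, means; dashed line, the filter at 5.90). Both Dhx15 sets and the Dhx9 sets above the filter are lower under the Rhau KO label, while for Ddx6 the brightest set alone is, at 11.80 against 12.49.

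The remaining groups had no call. The mitochondrial helicases Dhx30 and Ddx28, both needed for the mitochondrial ribosome, differed by 0.15 (limma adjusted p = 0.0679) and 0.095 (0.570). Dhx30 was at 11.06, 10.99 and 11.00 against 11.19, 11.12 and 11.20, so that its arrays did not overlap. Ddx58, the RIG-I sensor of viral RNA, differed by 0.15 with a 95% interval of -0.17 to 0.47. Ddx25, a testis helicase, had the largest difference without a call, at 6.93, 7.43 and 7.60 against 8.33, 8.03 and 7.56. Its labels overlapped, and the difference of 0.66 (SE 0.22, limma adjusted p = 0.0665) passed at 0.86 without Rhau KO replicate 3 (limma adjusted p = 0.0237). The DNA helicase Ddx11 differed by 0.041. In the group without an assigned role Ddx1, a part of the tRNA ligase complex, differed by 0.034 (95% interval -0.09 to 0.16) and Dhx40 by -0.052, and Dhx32 stood lowest at -0.26 (limma adjusted p = 0.0584). Dhx32 was at 9.50, 9.42 and 9.26 against 9.14, 9.16 and 9.09, with no overlap.

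Over the 38 tested genes without a call, differences ran from -0.26 to 0.66 with a median SE of 0.091. For 31 of them the 95% interval of the difference lay within 0.5 of 0 on the log2 scale, and for the rest a larger difference was not excluded by these 6 arrays. Below the filter lay 4 genes: the germ line helicases Ddx4 (Vasa) and Ddx43, and Dhx58 and Ddx60 of antiviral RNA sensing. Signals ran from 4.96 to 6.48 for Ddx4, from 4.64 to 5.46 for Ddx43 and from 4.60 to 5.45 for Dhx58. Ddx60 ran from 5.61 to 5.87 in the Rhau KO arrays and stood at 5.26, 5.39 and 2.17 in the wildtype arrays. No detection calls were used here, so signals at this end of the scale cannot be told from background, and these genes were not tested.

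RNA helicases outside the 2 named families were taken from a list that includes the eIF4A proteins, the NMD helicase Upf1, Dicer1 and the exosome partners Mtrex and Skiv2l. Of 22 measured, 18 were tested, 1 was higher, 0 were lower and the median was 0.014. The gene that rose was Mov10l1, a piRNA pathway helicase that also has a heart-specific isoform, at 9.57, 9.53 and 9.37 against 9.85, 9.94 and 10.01. The labels did not overlap, and the rise was 1.36-fold (0.44, SE 0.079, limma adjusted p = 0.00342). Eif4a1 and Eif4a2, the translation initiation helicases, differed by -0.067 and 0.13 without passing (limma adjusted p = 0.467 and 0.0590). Helicase activity also depends on cofactors, the G-patch proteins that switch on DEAH-box enzymes and the MIF4G proteins that do so for DEAD-box enzymes. Of 23 such genes measured 22 were tested, 2 were higher, 0 were lower and the median was 0.030. Son, a splicing cofactor with a G-patch, was at 12.63, 12.61 and 12.60 against 12.80, 12.82 and 12.85 and rose by 0.21 (SE 0.043, limma adjusted p = 0.00682). Rbm17, also known as SPF45, was at 11.61, 11.63 and 11.63 against 11.84, 11.80 and 11.72 and rose by 0.16 (limma adjusted p = 0.0498). The shares of all genes called higher and lower were 8.20% and 10.8%.

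**Figure D4:**
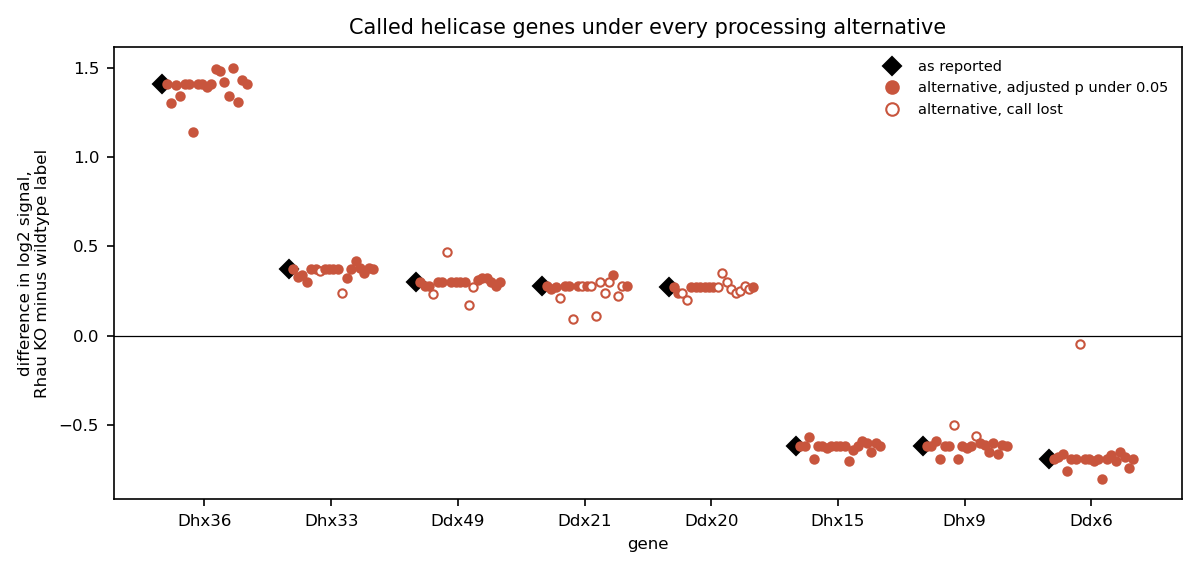
Difference in log2 signal (labelled Rhau KO minus labelled wildtype) of the 8 called genes as reported (black diamond) and under each of 19 alternatives (circles; filled where adjusted p stayed under 0.05). Dhx36 and Dhx15 are filled throughout, Ddx6 has 1 open circle near 0 from averaging its probe sets, and Ddx20 and Ddx21 have 10 open circles each.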

How the data were processed

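Biotin-labelled RNA from embryonic hearts was read on 6 arrays. The authors deposited log2 signals made with MAS5, per the submitters' processing notes, and its version is not stated there. The values were used unaltered. Of 45101 probe sets, 64 controls were dropped and 34945 name 1 gene in the platform annotation; 34741 of these were in the RefSeq table of GRCm38.p6, where no helicase changed its symbol.

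All 12416 genes above the filter were fitted (lmFit, eBayes with a trend) in limma 3.58.1 under R 4.3.3, with 3 arrays per label. Tests were two-sided at a Benjamini-Hochberg adjusted p of 0.05, and the procedure was tested on simulated arrays. The series text gives 3 hearts per group without tying a heart to an array, so p-values measure the spread between arrays, which may be technical. The alternatives change scale, filter, probe sets, model or arrays.

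Members, lists, roles and tests were chosen with earlier results of these data known. The rule names Dhx36, called members, up to 2 of the brightest members in each group without a call, members below the filter and up to 4 called genes of each related list. Further genes given as values, and the promoters shown, were chosen after their values were seen. Python 3.11.15, pandas 2.3.3 and matplotlib 3.10.9 served for tables and plots.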

Additional observations from a re-analysis of the deposited data

How the results depend on the processing

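With 3 arrays per label and no detection calls, small differences and dim genes are the least certain. Of the 46 tested helicases, 29 kept their direction of call, or the lack of one, under all 19 alternatives, Dhx36 and Dhx15 among them, and 4 without a call did so under the 18 that gave them a value. The count of 5 higher members became 8 with quantile normalization, 2 with median centring, 1 in the fit with the Y-linked signal and 2 to 4 when 1 array was left out. The count of 3 lower members became 1 with averaged probe sets, where Dhx15 remained, and was 3 or 4 when 1 array was left out. Shares of all genes called lower were not counted for these alternatives. The median difference of 0.10 was 0.083 with a pseudocount of 64, 0.072 with quantile normalization, 0.026 with median centring, 0.10 with no filter or with array weights, 0.11 with averaged probe sets or without the probe sets marked as shared, 0.13 with the Y-linked signal and 0.086 to 0.11 when 1 array was left out. Ddx5 stood at 0.20 with a call (limma adjusted p = 0.0348) when its probe sets were averaged, against -0.13 without one. That average takes in a set below the filter, which differed by 0.76 between the labels. Median centring lowered the share of higher calls among all called genes from 43.2% to 22.4%; it called 2 helicases higher and 4 lower, where 4.28% and 14.9% of all genes were called. The cause of these changes was not tested. With the replicate number as a block, 3 helicases were higher and 3 lower. The shares of all genes called in that fit were not counted. Ddx20 and Ddx21 lost their calls under this block (limma adjusted p = 0.0575 and 0.0528). Deviations of same-numbered arrays correlated at -0.012, 0.045 and 0.013, and those of other pairs between -0.066 and 0.048. This gives no sign that the numbers pair the arrays, but cannot exclude it. Across all members, 7 genes without a call gained one under at least 1 alternative. How often genes outside the family did so was not counted.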

Other observations

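Other probe sets of the helicases added values that the brightest set of a gene did not show. These genes were chosen after their values were seen. Of 60 further probe sets, 42 lay above the filter, 29 with the sign of the brightest set and 13 with the opposite sign, and tested one by one 7 were higher and 2 lower. In that test 6.80% of all 22796 probe sets were higher and 7.84% lower. For the called genes, 4 of 9 further probe sets above the filter passed in the direction of the brightest set, those of Dhx36, Dhx15 and Dhx9.

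The 4 genes without a call by their brightest set that passed on another set were Dhx30, Ddx39a, Ddx39b and Ddx46. Dhx30, of the mitochondrial ribosome, had sets at 0.25 and 0.37 that passed (limma adjusted p = 0.0235 and 0.0435) and was called at 0.27 with its probe sets averaged. For Ddx39a, 1 set passed at 0.31, and for its paralog Ddx39b 1 set passed at 0.22; that Ddx39b set and the Dhx30 set at 0.25 carry the manufacturer's mark for probes that may match other transcripts. Ddx46, an early spliceosome enzyme with 5 probe sets, had 1 set at 7.46, 7.50 and 7.25 against 7.92, 7.95 and 7.91, a difference of 0.52 (limma adjusted p = 0.0255), while its other sets lay between 0.060 and 0.19 without a call. The brightest Ddx5 set pointed down at -0.13, and its other sets above the filter pointed up, from 0.085 to 0.21, none with a call.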
